A study of Homo sapiens with 10 samples.

Results

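Proteasome subunit genes were followed in 786-O cells, an established human line of clear-cell renal carcinoma without functional VHL, after knockdown of ZHX2 or of p65. The members were all protein-coding genes whose symbol is PSMA, PSMB, PSMC, PSMD, PSME, PSMF or PSMG followed by a number, which gave 48 genes in the RefSeq gene table. Of these, 44 had a probe set naming a single gene, out of 22432 genes measured in all, and PSMA6, PSMC5, PSMD7 and PSMD13 were not analysed here. The measured members were 37 constitutive genes, 5 inducible genes (PSMB8, PSMB9, PSMB10, PSME1 and PSME2) and 2 genes known from testis or thymus (PSMA8 and PSMB11).

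Total RNA was hybridised to Affymetrix arrays in 5 groups of 2 arrays. ZHX2 hairpin 44, ZHX2 hairpin 45 and a scrambled hairpin (Scr) shared one table of 6 arrays, and p65 shRNA and its control shRNA (Ctrl) shared another table of 4 arrays. ZHX2 is a zinc-finger and homeobox transcription factor, and p65 is the NF-kB subunit encoded by RELA. Cells of every group, controls included, had been infected with lentivirus and selected in puromycin at 2 ug/ml. The labels name no clone, and neither the origin of the replicates nor the relation of the Ctrl shRNA to Scr is stated. Separate cultures are thus not assured, so the p-values reflect the spread of these arrays alone, and that spread may be technical. Values are log2 signals normalized within each table by the authors, so a difference of 1 is a doubling, and no level was compared between tables or between probe sets.

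The proteasome is the large protease that degrades ubiquitin-tagged proteins. Its barrel, the 20S core, is a stack of alpha and beta rings in which certain beta subunits cut peptide bonds, and its 19S cap recognises, unfolds and threads in the substrate. Interferon gamma induces PSMB8, PSMB9 and PSMB10, which take the places of the constitutive catalytic subunits PSMB5, PSMB6 and PSMB7 to form the immunoproteasome, and PSME1 and PSME2, which form the 11S activator, also called PA28. The transcription factor NRF1 (NFE2L1) is known to raise the constitutive genes together through antioxidant response elements when proteasome capacity is short.

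The knockdowns were measured first. ZHX2 gave 9.35 and 9.38 under hairpin 44, 8.93 and 9.02 under hairpin 45, and 10.58 and 10.43 in Scr cells. The changes were -1.14 and -1.53 (SE 0.0862 each), at limma adjusted p of 0.00528 and 0.000926. RELA gave 5.04 and 5.28 with p65 shRNA, against 7.64 and 7.67 with Ctrl shRNA, a change of -2.50 that missed the threshold (limma adjusted p = 0.0733) and passed when limma followed the intensity trend (adjusted p = 0.00132). Replicate arrays of a group differed with an SD over genes of 0.197 to 0.239 in the ZHX2 table and 0.40 to 0.427 in the p65 table. Of 7 renal markers measured, 4 fell with the ZHX2 hairpins (PAX8, PAX2, CDH6 and NNMT), against 6.41% of all genes. The other 3 did not pass, and 2 of the 7 had positive changes. The 7 changes ran from -1.92 to 0.11, with a median of -0.36. The mean signal of all 7 per array, which a single large fall can lower, was 9.31 to 9.58 with the hairpins and 9.86 to 9.91 in Scr cells. None of 6 leukocyte or 3 endothelial markers passed the limma threshold with the ZHX2 hairpins (at an unadjusted p under 0.05, 1 and 0 did), and of 4 fibroblast markers LUM fell. The leukocyte markers averaged 5.22 to 5.38 per array with the ZHX2 hairpins and 5.30 to 5.37 in Scr cells, and 1.69 to 1.84 with p65 shRNA and 1.61 to 1.97 with Ctrl shRNA. Their part in the results on proteasome genes was not tested.

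Promoter sequences bear on the members because these genes are known to be regulated in groups. The 250 bases before the start were available for 38 of the 44 measured members and for 15843 protein-coding genes in all, in the RefSeq promoter table of build GRCh38.p14, and both strands were searched for 5 motifs. The core of the antioxidant response element, spelled TGACNNNGC, was present before 8 of 31 constitutive members (25.8%), 3 of 5 inducible members (60.0%) and 11.61% of all genes. The interferon-stimulated response element (ISRE), spelled GAAANNGAAA, was present before 3 of 31 constitutive members (9.68%), 2 of 5 inducible members (40%) and 2.71% of all genes. The GAS element of STAT binding, spelled TTCNNNGAA, was found before 4 of 31 constitutive members, 0 of 5 inducible members and 6.11% of all genes. The CCAAT box, whose letters are its name, was found before 14 of 31, 1 of 5 and 34.46%, and the NF-kB motif before 0 of 31, 0 of 5 and 5.69%. A match is a description of these letters and not a site of binding.

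The next sequences are the windows of 3 members that rose with the ZHX2 hairpins and of 3 inducible members that did not pass the test, chosen after their values were seen because each holds an antioxidant response element core or an ISRE. Each is written 5′ to 3′ on the gene's strand and ends at the last base before the start. Capitals mark the matched motifs, and in the PSMB9 window the antioxidant response element core is read from the opposite strand.
PSMB3, chr17:38752491-38752740, plus strand: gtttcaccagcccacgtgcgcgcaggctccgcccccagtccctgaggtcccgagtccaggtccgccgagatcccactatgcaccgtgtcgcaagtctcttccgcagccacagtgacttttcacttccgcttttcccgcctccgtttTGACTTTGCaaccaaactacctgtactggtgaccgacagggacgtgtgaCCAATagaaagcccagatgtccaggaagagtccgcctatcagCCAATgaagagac
PSMD12, chr17:67366578-67366827, minus strand: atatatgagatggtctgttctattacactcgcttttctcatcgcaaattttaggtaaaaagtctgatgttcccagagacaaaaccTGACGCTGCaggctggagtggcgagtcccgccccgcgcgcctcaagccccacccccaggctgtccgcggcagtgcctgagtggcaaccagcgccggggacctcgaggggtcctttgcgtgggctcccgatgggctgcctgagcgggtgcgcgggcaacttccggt
PSMG1, chr21:39183452-39183701, minus strand: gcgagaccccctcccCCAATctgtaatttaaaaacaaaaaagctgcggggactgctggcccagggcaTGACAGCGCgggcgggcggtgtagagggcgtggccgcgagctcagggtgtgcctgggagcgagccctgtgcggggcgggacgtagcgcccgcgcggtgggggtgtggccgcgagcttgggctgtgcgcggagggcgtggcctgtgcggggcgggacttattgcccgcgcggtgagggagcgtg
PSMB9, chr6:32853942-32854191, plus strand: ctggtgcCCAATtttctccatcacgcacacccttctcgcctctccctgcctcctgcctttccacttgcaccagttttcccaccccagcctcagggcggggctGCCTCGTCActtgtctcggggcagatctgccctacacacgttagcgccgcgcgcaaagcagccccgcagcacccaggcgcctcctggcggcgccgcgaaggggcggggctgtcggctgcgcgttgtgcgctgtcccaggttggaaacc
PSMB10, chr16:67936851-67937100, minus strand: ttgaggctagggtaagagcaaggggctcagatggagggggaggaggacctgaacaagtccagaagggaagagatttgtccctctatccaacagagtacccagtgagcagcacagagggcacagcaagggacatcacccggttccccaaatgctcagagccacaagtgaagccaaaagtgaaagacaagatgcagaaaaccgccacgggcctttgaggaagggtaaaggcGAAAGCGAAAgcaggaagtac
PSME2, chr14:24146611-24146860, minus strand: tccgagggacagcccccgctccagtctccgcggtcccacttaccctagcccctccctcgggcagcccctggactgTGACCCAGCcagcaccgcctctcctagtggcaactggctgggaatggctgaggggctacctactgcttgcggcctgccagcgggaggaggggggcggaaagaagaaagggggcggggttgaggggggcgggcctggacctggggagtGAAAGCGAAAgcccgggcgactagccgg
The ISRE began 21 bases before the start of PSMB10 and 28 bases before the start of PSME2. The antioxidant response element core began 104 bases before the start of PSMB3, 165 before that of PSMD12 and 183 before that of PSMG1.

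With both ZHX2 hairpins averaged, 22 of 44 proteasome genes rose and 0 fell at a limma adjusted p under 0.05, all 22 among the 37 constitutive genes (59.5%). Over all 22432 genes, 11.9% rose and 6.41% fell. At an unadjusted p under 0.05, 32 of the 44 members passed, against 7220 of 22432 genes. The rises were small, from 0.27 for PSMD8 to 0.59 for PSMC4 on the log2 scale, which is 1.21-fold to 1.5-fold. The median change was 0.30 over the 37 constitutive genes, -0.08 over the 5 inducible genes and -0.004 over all genes. All 4 hairpin arrays lay above both Scr arrays for 34 of 44 members, against 21.9% of all genes, and below both for PSMB9 alone, against 16.4% of all genes. As the RNA comes from whole cultures, a change in every cell and a change in the share of cells that carry it cannot be told apart. The number called was 14 after a further quantile normalization, where 9.41% of all genes rose, and 7 to 19 when 1 of the 6 arrays was left out, lowest without Scr replicate 2. PSMB3, PSMB6, PSMC4, PSMD2, PSMD12, PSME3 and PSMG1 were called in each of these 6 fits, and PSMC2, PSMD5, PSMD8 and PSME4 in none of them.

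**Figure D1:**
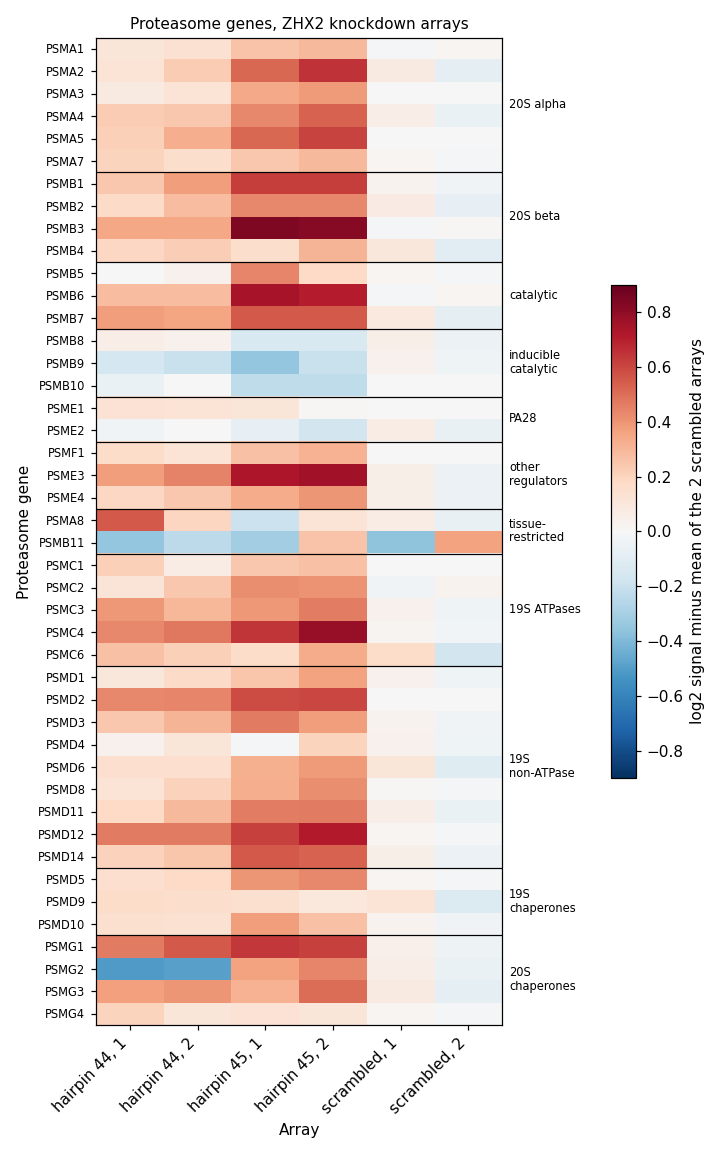
Each cell gives the log2 signal of one proteasome gene on one ZHX2 array minus the mean of the 2 Scr (scrambled) arrays, with 4 hairpin arrays on the left, 2 scrambled arrays on the right and genes grouped by role. Most constitutive genes are higher on all 4 hairpin arrays and higher again with hairpin 45, while PSMB9 is lower on all 4 and PSMG2 is lower with hairpin 44 and higher with hairpin 45.

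In the alpha ring, the gate and outer wall of the core, 3 of 6 measured genes rose (PSMA5, PSMA2 and PSMA4). PSMA5 gave 8.74 and 8.85 under hairpin 44, 9.04 and 9.13 under hairpin 45, and 8.53 and 8.52 in Scr cells, a change of 0.42 (SE 0.0708, limma adjusted p = 0.0133). The changes of PSMA2 and PSMA4 were 0.37 (SE 0.0839, limma adjusted p = 0.0308) and 0.36 (SE 0.0728, limma adjusted p = 0.0234). PSMA1, PSMA3 and PSMA7 did not pass, with changes of 0.20 to 0.23 and adjusted p of 0.0512 to 0.0821. For all 6 alpha genes, both hairpin 45 arrays were above both hairpin 44 arrays, and these above both Scr arrays. Of all genes, 12.2% had this order.

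Among beta-ring subunits without a known active site of their own in human cells, 3 of 4 rose (PSMB3, PSMB1 and PSMB2). PSMB3 had the smallest p of all members, with signals of 11.07 and 11.07 under hairpin 44, 11.56 and 11.54 under hairpin 45, and 10.71 and 10.73 in Scr cells. Its means were 11.07 ± 0.00148 and 11.55 ± 0.0165 with the hairpins and 10.72 ± 0.0122 in Scr cells (SD, n = 2 each), and its change was 0.58 (SE 0.0602, limma adjusted p = 0.00366). The 3 groups of PSMB3 did not overlap and were further apart than their replicates. PSMB1 gave 9.91, 10.04, 10.29 and 10.29 on the hairpin arrays, against 9.70 and 9.63 on the Scr arrays, a change of 0.47 (SE 0.0703, limma adjusted p = 0.00988). PSMB2 changed by 0.33 (SE 0.0756, limma adjusted p = 0.0322) by the brighter of its 2 probe sets and by 0.00 by the dimmer one. PSMB4, at 0.22, did not pass (limma adjusted p = 0.15).

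Of the 3 constitutive catalytic genes, PSMB6, the caspase-like subunit, and PSMB7, the trypsin-like subunit, rose. PSMB6 gave 10.91 and 10.91 under hairpin 44, 11.38 and 11.34 under hairpin 45, and 10.62 and 10.65 in Scr cells, a change of 0.49 (SE 0.0611, limma adjusted p = 0.00576). PSMB7 gave 10.28 and 10.26 under hairpin 44, 10.46 and 10.46 under hairpin 45, and 9.99 and 9.82 in Scr cells, a change of 0.46 (SE 0.0734, limma adjusted p = 0.0114). PSMB5, the chymotrypsin-like subunit and main target of proteasome inhibitors, gave 9.66 and 9.70 under hairpin 44, 10.10 and 9.84 under hairpin 45, and 9.68 and 9.64 in Scr cells. Its hairpin 44 arrays overlapped the Scr arrays, and its change of 0.16 did not pass (SE 0.0896, limma adjusted p = 0.28).

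In the 19S base, 3 of 5 measured ATPase genes rose (PSMC4, PSMC3 and PSMC2). PSMC4 gave 11.00 and 11.04 under hairpin 44, 11.21 and 11.35 under hairpin 45, and 10.59 and 10.54 in Scr cells, a change of 0.59 (SE 0.071, limma adjusted p = 0.0055). PSMC3 and PSMC2 changed by 0.38 and 0.30, and PSMC1 and PSMC6, at 0.20 and 0.25, did not pass. Among the 9 non-ATPase genes measured 6 rose (PSMD12, PSMD2, PSMD14, PSMD3, PSMD11 and PSMD8). PSMD3 changed by 0.35 by the brighter of its 2 probe sets and by 0.19 by the dimmer one. PSMD12, a subunit of the lid, gave 10.80 and 10.80 under hairpin 44, 10.95 and 11.05 under hairpin 45, and 10.35 and 10.32 in Scr cells, a change of 0.56 (SE 0.065, limma adjusted p = 0.00494). PSMD2, the large scaffold subunit of the base, gave 11.21 and 11.22 under hairpin 44, 11.37 and 11.38 under hairpin 45, and 10.78 and 10.78 in Scr cells, a change of 0.51 (SE 0.0599, limma adjusted p = 0.00511). PSMD14, the deubiquitinase of the lid, changed by 0.39 and PSMD4, a ubiquitin receptor, by 0.08, which did not pass (limma adjusted p = 0.565).

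PSME3, which forms an activator of the core in the nucleus, and PSME4, another activator of the core, both rose, and the inhibitor PSMF1 did not pass. PSME3 gave 9.59 and 9.66 under hairpin 44, 9.94 and 9.97 under hairpin 45, and 9.27 and 9.16 in Scr cells, a change of 0.58 (SE 0.0685, limma adjusted p = 0.00518). PSME4 changed by 0.29 (SE 0.0698, limma adjusted p = 0.0376) and PSMF1 by 0.22 (SE 0.0619, limma adjusted p = 0.0603). PSME3, PSME4 and PSMF1 were counted with the constitutive genes.

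None of the 5 inducible genes passed the limma threshold with both hairpins averaged, against 11.9% of all genes higher and 6.41% lower. At an unadjusted p under 0.05, 1 of the 5 passed (PSMB9), against 7220 of 22432 genes. With only 5 genes, these counts do not set the inducible genes apart from all genes. PSMB9 gave 7.28 and 7.24 under hairpin 44, 7.09 and 7.24 under hairpin 45, and 7.48 and 7.40 in Scr cells, a change of -0.23 (SE 0.0724, limma adjusted p = 0.0839). All 4 hairpin arrays were below both Scr arrays, and the change passed when dim probe sets were left out of the fit (adjusted p = 0.0408), where 11.0% of the genes kept were lower. PSMB10 gave 7.87 and 7.93 under hairpin 44, 7.70 and 7.70 under hairpin 45, and 7.93 and 7.93 in Scr cells, a change of -0.13 (SE 0.062, limma adjusted p = 0.216). PSMB8 gave 8.05 and 8.03 under hairpin 44, 7.85 and 7.85 under hairpin 45, and 8.04 and 7.94 in Scr cells, a change of -0.04 (SE 0.0643, limma adjusted p = 0.693). For both genes the hairpin 45 arrays lay below the Scr arrays and the hairpin 44 arrays did not separate from them. The 8 probe sets of PSMB8 and the 4 of PSMB9 gave changes from -0.05 to -0.04 and from -0.27 to -0.23. All PSMB8 probe sets but the brightest had the same mean signal (7.91) and change (-0.05). Some PSMB9 probe sets were alike in the same way (7.11 and -0.23). Their agreement is thus not counted as independent measurement.

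The 2 subunits of the 11S activator did not pass either. PSME1 gave 9.11 and 9.10 under hairpin 44, 9.09 and 8.99 under hairpin 45, and 8.98 and 8.98 in Scr cells, a change of 0.10 (SE 0.0653, limma adjusted p = 0.376). PSME2 gave 9.46 and 9.49 under hairpin 44, 9.42 and 9.33 under hairpin 45, and 9.56 and 9.43 in Scr cells, a change of -0.08 (SE 0.0725, limma adjusted p = 0.526). The tissue-restricted PSMA8 and PSMB11 changed by 0.17 and -0.16 with overlapping arrays, and neither passed (limma adjusted p = 0.468 and 0.706).

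Each inducible catalytic gene was then set against the constitutive gene whose place its product takes, as the difference of their log2 signals on the same array. PSMB9 less PSMB6 was -3.63, -3.67, -4.28 and -4.10 on the hairpin arrays, against -3.15 and -3.25 on the Scr arrays, a mean difference of -0.72. PSMB10 less PSMB7 was -2.41, -2.33, -2.76 and -2.76 on the hairpin arrays, against -2.06 and -1.89 on the Scr arrays, a mean difference of -0.59. All 4 hairpin arrays were below both Scr arrays in these 2 pairs. Both had an exact two-sided permutation p of 0.133, the smallest that 4 arrays against 2 allow, and of 0.2 after Benjamini-Hochberg adjustment over the 3 pairs. PSMB8 less PSMB5 was -1.60, -1.67, -2.24 and -1.99 on the hairpin arrays, against -1.64 and -1.70 on the Scr arrays, a mean difference of -0.21 with an exact two-sided permutation p of 0.667. Both of its hairpin 45 arrays lay below the Scr arrays, and its hairpin 44 arrays did not separate from them. These differences describe change of the paired genes relative to each other on these arrays, and not the level of either product. None of the 3 pairs passed the test.

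**Figure D2:**
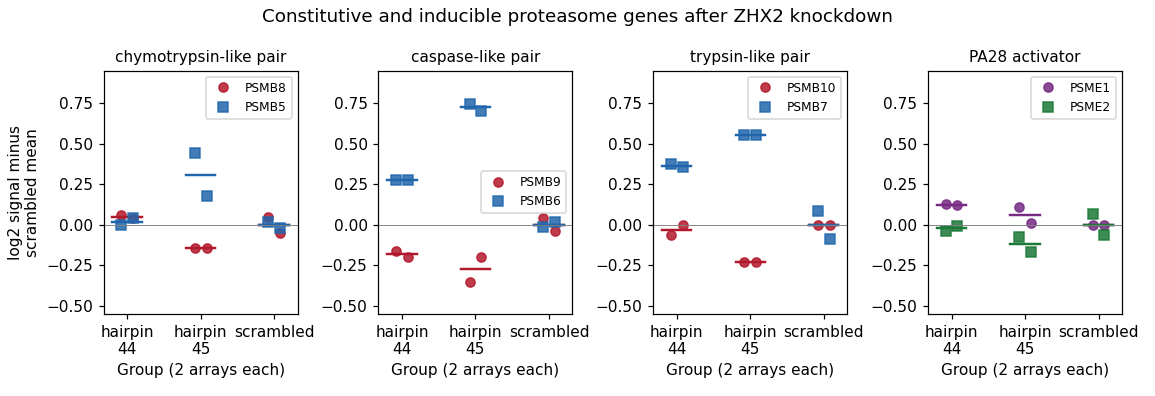
Log2 signal of each gene minus its mean on the Scr (scrambled) arrays, for 3 pairs of an inducible and a constitutive catalytic gene and for both genes of the 11S activator PA28, with points for arrays and bars for means of the 2 arrays of hairpin 44, hairpin 45 and scrambled. PSMB6 and PSMB7 stand above PSMB9 and PSMB10 on every hairpin array, while PSMB8 and PSMB5 separate with hairpin 45 only.

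**Figure D3:**
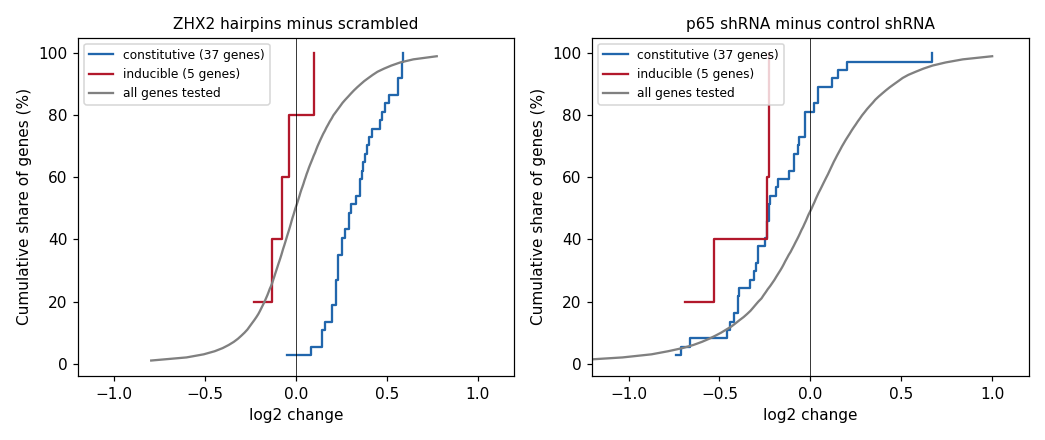
Cumulative share of genes, in percent, by log2 change for 37 constitutive genes, 5 inducible genes and all genes tested (drawn by percentiles), with ZHX2 hairpins minus scrambled on the left and p65 shRNA minus control shRNA on the right. On the left the constitutive curve lies right of all genes over most of its range, with a median of 0.30. On the right both proteasome curves lie left of all genes at their medians of -0.23 and -0.24.

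The hairpins were next taken one by one, and since both comparisons share the 2 Scr arrays their values stand side by side without a test of agreement. With hairpin 45, 28 of 44 members rose and 0 fell, against 13.0% and 7.11% of all genes, and with hairpin 44, 6 rose and 1 fell, against 4.81% and 2.84% of all genes. The constitutive median was 0.41 with hairpin 45 and 0.22 with hairpin 44, and the inducible median was -0.14 and -0.03. The 6 genes that rose with hairpin 44 were PSMG1 (0.51), PSMD12 (0.46), PSMC4 (0.46), PSMD2 (0.44), PSME3 (0.41) and PSMB3 (0.35), which changed by 0.62, 0.66, 0.72, 0.59, 0.75 and 0.82 with hairpin 45. None of the 7 calls with hairpin 44 was made when any 1 of the 4 arrays compared was left out, and 7 to 23 were made with hairpin 45, lowest without hairpin 45 replicate 2. With a moderation that followed the intensity trend, 21 rose and 1 fell with hairpin 44, against 11.7% and 5.82% of all genes.

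Both hairpin 45 arrays were above both hairpin 44 arrays for 31 of 44 members (26.9% of all genes), and below them for 7 (23.5% of all genes), among these all 5 inducible genes. The dimmer probe sets of PSMB2 and PSMD3 gave -0.05 and -0.12 for hairpin 45 less hairpin 44, against 0.21 and 0.14 by those used. For 29 members (65.9%) the hairpin 45 arrays were above the hairpin 44 arrays and these above the Scr arrays, against 12.2% of all genes, and for PSMB9 the order was the reverse, against 6.66% of all genes. ZHX2 itself had the order of PSMB9. For PSMB9 hairpin 45 less hairpin 44 was only -0.09 (limma adjusted p = 0.663), and replicate 2 was at 7.24 with each hairpin. For ZHX2 that difference was -0.39 (limma adjusted p = 0.152). A relation between the 2 genes was not tested. The difference between the hairpins passed the limma threshold for PSMG2 alone, against 0.129% of all genes higher and 0.267% lower, and 20 of 44 members and 3385 of 22432 genes had an unadjusted p under 0.05. For PSMB3, PSME3 and PSMA2 the differences of hairpin 45 less hairpin 44 were 0.48, 0.33 and 0.41, with limma adjusted p of 0.0779, 0.174 and 0.174. With the intensity trend 19 members passed, all higher with hairpin 45, against 4.11% of all genes higher and 2.43% lower.

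Assembly of the core needs the chaperones PSMG1 and PSMG2, which form a heterodimer that starts the alpha ring, and PSMG3 and PSMG4, which form another. PSMG1 gave 9.21 and 9.30 under hairpin 44, 9.38 and 9.36 under hairpin 45, and 8.79 and 8.70 in Scr cells, a mean change of 0.56 (SE 0.068, limma adjusted p = 0.0055). PSMG2 gave 10.72 and 10.80 under hairpin 45, 9.85 and 9.87 under hairpin 44, and 10.42 and 10.30 in Scr cells. It was the one member that the hairpins moved in opposite directions past the threshold, by 0.40 with hairpin 45 and by -0.50 with hairpin 44 (SE 0.0811 each, limma adjusted p = 0.0211 and 0.0248). The difference of hairpin 45 less hairpin 44 was 0.90 (SE 0.0811, limma adjusted p = 0.0229). That call was made in none of the fits that left out 1 of the 4 hairpin arrays, and the rise with hairpin 45 was called in 1 of the 4 fits that left out an array. The average over both hairpins was -0.05.

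PSMG3 rose, with a change of 0.40 (SE 0.0867, limma adjusted p = 0.0288), and PSMG4, at 0.14, did not pass (limma adjusted p = 0.206). Of the 3 chaperones of the 19S base, PSMD5 rose by 0.29 (SE 0.0613, limma adjusted p = 0.0257), while PSMD10 and PSMD9, at 0.23 and 0.14, did not pass.

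**Figure D4:**
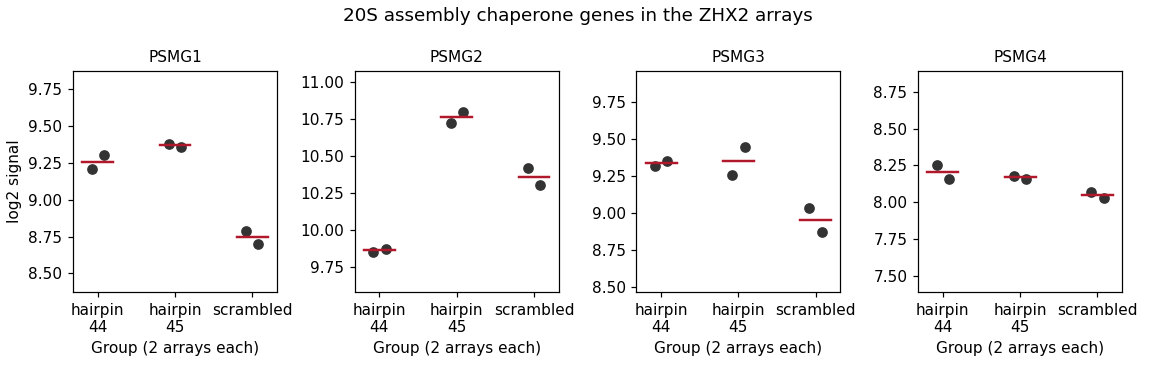
Log2 signal of the 4 genes of 20S assembly chaperones on the arrays of hairpin 44, hairpin 45 and Scr (scrambled), with a point for each of 2 arrays and a bar for their mean; each panel spans the same log2 range around its own mean. PSMG1 and PSMG3 are higher with both hairpins, and PSMG2 is lowest with hairpin 44 and highest with hairpin 45.

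Genes that work with the proteasome without bearing a PSM symbol were described from lists. Of 13 other proteasome-associated genes 8 rose and 0 fell with both hairpins averaged, with a median of 0.41, where 11.9% of all genes rose and 6.41% fell. ZFAND2A, which associates with the proteasome under arsenite stress, gave 8.69 and 8.74 under hairpin 44, 9.05 and 8.92 under hairpin 45, and 8.23 and 8.15 in Scr cells, a change of 0.66 (SE 0.0717, limma adjusted p = 0.00421). ADRM1, a ubiquitin receptor of the cap, changed by 0.44 (SE 0.0603, limma adjusted p = 0.00779). POMP, the maturation factor of the core, gave 11.66 and 11.73 under hairpin 44, 11.91 and 11.92 under hairpin 45, and 11.44 and 11.34 in Scr cells, a change of 0.41 (SE 0.0674, limma adjusted p = 0.0122). Of 3 measured ubiquitin and E1 genes 2 rose (11.9% of all genes), the polyubiquitin gene UBB by 0.52 (SE 0.062, limma adjusted p = 0.00547) and the ubiquitin-activating enzyme UBA6 by 0.38 (SE 0.0695, limma adjusted p = 0.0175), which was called in 1 of the 6 fits that left out an array.

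Among the 8 measured genes of the NRF1 pathway 1 rose (12.5%) and 0 fell, with a median of 0.14, a share near the 11.9% of all genes that rose. NFE2L1 gave 10.09 and 10.09 under hairpin 44, 10.22 and 10.29 under hairpin 45, and 10.03 and 10.06 in Scr cells, a change of 0.13 that did not pass (SE 0.0624, limma adjusted p = 0.233). VCP, the ATPase that extracts NRF1 from the endoplasmic reticulum, rose by 0.28 (SE 0.0633, limma adjusted p = 0.0302), and the call was made in none of the fits that left out 1 array (largest adjusted p = 0.108). SEL1L, of the degradation machinery of the endoplasmic reticulum, changed by 0.19 (limma adjusted p = 0.115). The RNA level of NFE2L1 does not show the cleavage or location of its protein.

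The interferon and NF-kB regulators of the inducible genes gave 0 higher and 2 lower of 10 measured, with a median of -0.13, against 11.9% of all genes higher and 6.41% lower. IRF9, a subunit of the interferon-stimulated factor that binds the ISRE, gave 7.90 and 8.01 under hairpin 44, 7.87 and 7.95 under hairpin 45, and 8.75 and 8.63 in Scr cells, a change of -0.76 (SE 0.0752, limma adjusted p = 0.00342). The kinase JAK1 changed by -0.40 (SE 0.0654, limma adjusted p = 0.0121). IRF1, an interferon-induced activator known to drive PSMB9, changed by 0.03 and did not pass (SE 0.0736, limma adjusted p = 0.847). RELA, a knockdown target, was not counted among these 10, so the count of 0 higher does not include it. RELA rose on these arrays, with 9.64 and 9.68 under hairpin 44, 9.82 and 9.75 under hairpin 45, and 9.34 and 9.23 in Scr cells, a change of 0.44 (SE 0.0689, limma adjusted p = 0.0112).

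With p65 shRNA no proteasome gene passed the limma threshold, against 0.0% of all genes called, while 7 of 44 members and 3216 of 22432 genes had an unadjusted p under 0.05. The change was negative for 35 of 44 members, with medians of -0.23 over the constitutive genes, -0.24 over the inducible genes and 0.007 over all genes. For PSMB2 and PSMD3 the probe sets used gave -0.33 and 0.02, while their dimmer probe sets gave 0.77 and -0.97. Both p65 arrays lay below both Ctrl arrays for 26 members (59.1%), against 22.7% of all genes, and above both for PSMB11, PSMD8 and PSMG3, against 23.4% of all genes. PSMB11 was dim, with a mean signal of 1.70 in this table. When moderation followed the intensity trend PSMB1 and PSMG1 fell, against 2.49% of all genes lower and 1.37% higher.

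**Figure D5:**
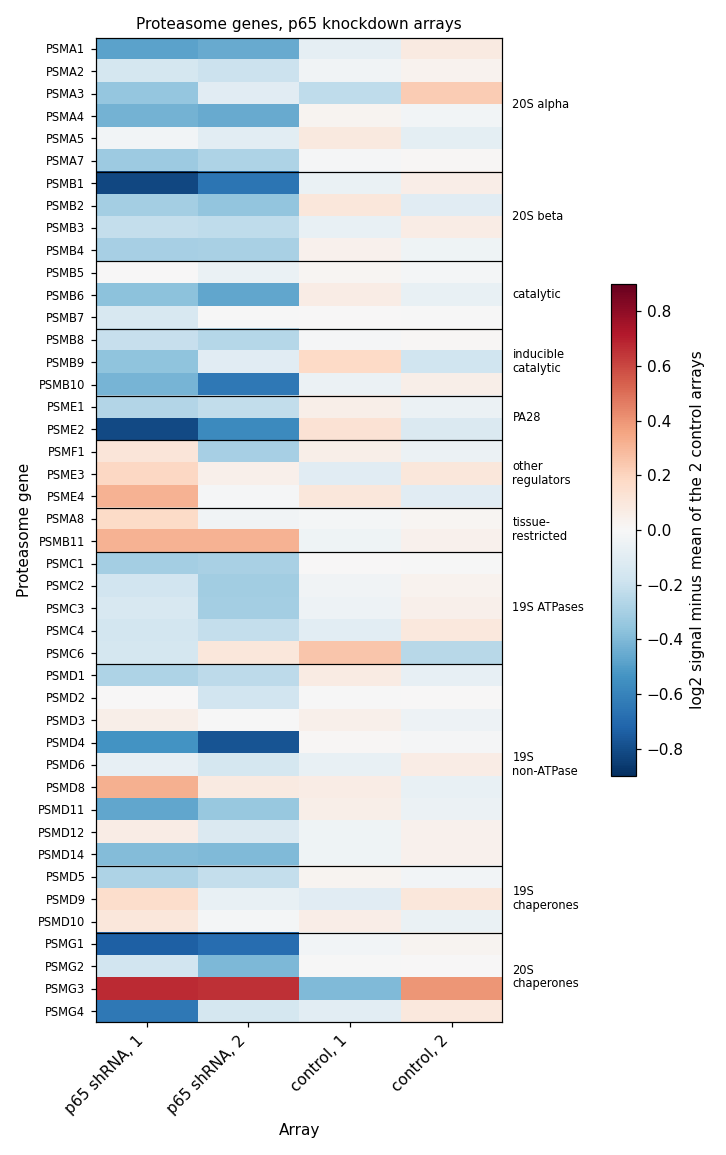
Each cell gives the log2 signal of one proteasome gene on one array minus the mean of the 2 Ctrl (control shRNA) arrays, with both p65 shRNA arrays on the left and genes grouped by role. PSMB1, PSMG1, PSMD4 and PSME2 are among the lowest on the p65 arrays, and the control arrays of PSMG3 differ from each other by more than most.

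PSMG1 gave 7.43 and 7.48 with p65 shRNA, against 8.14 and 8.19 with Ctrl shRNA, a change of -0.71 (SE 0.165, limma adjusted p = 0.173, and 0.0146 with the intensity trend). PSMB1 gave 7.73 and 7.89 with p65 shRNA, against 8.49 and 8.61 with Ctrl shRNA, a change of -0.74 (SE 0.174, limma adjusted p = 0.177, and 0.0147 with the intensity trend). Both genes were separated between groups by more than the gap between replicates. PSMD4 was at 2.26 and 2.02 with p65 shRNA, against 2.81 and 2.79 with Ctrl shRNA, a change of -0.66 (limma adjusted p = 0.213). Array medians of all probe sets were 1.87 to 1.89 in this table, so the change of PSMD4 involves dim signals. PSMA1, PSMA4 and PSMD11 changed by -0.46, -0.44 and -0.40, with limma adjusted p of 0.322, 0.321 and 0.374. Their p65 arrays lay below both Ctrl arrays, as did those of 22.7% of all genes. These members were named for their small p in this comparison, so that separation adds no evidence. PSMG3 was at 6.77 and 6.76 with p65 shRNA, against 5.70 and 6.50 with Ctrl shRNA, so that its difference of 0.67 is within the gap between its 2 Ctrl arrays.

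All 5 inducible genes had negative changes with p65 shRNA and none passed the test. PSME2 gave 4.63 and 4.87 with p65 shRNA, against 5.57 and 5.31 with Ctrl shRNA, a change of -0.69 (SE 0.196, limma adjusted p = 0.23). PSMB10 gave 6.07 and 5.84 with p65 shRNA, against 6.43 and 6.54 with Ctrl shRNA, a change of -0.53 (SE 0.182, limma adjusted p = 0.295). PSME1 and PSMB8 changed by -0.24 and -0.23 without overlap of the groups, and PSMB9 by -0.23 with overlapping arrays (limma adjusted p = 0.571, 0.582 and 0.677). PSMB5, PSMB6 and PSMB7 changed by -0.03, -0.42 and -0.07. The pair differences between p65 and Ctrl arrays were -0.20 for PSMB8 less PSMB5, 0.19 for PSMB9 less PSMB6 and -0.46 for PSMB10 less PSMB7, with exact two-sided permutation p of 0.333, 0.667 and 0.333, where 0.333 is the smallest that 2 arrays against 2 allow. The ubiquitin-ligase adaptor SEL1L and the ligase SYVN1, both in the NRF1 list, changed by -0.67 and 0.90 with p65 shRNA (limma adjusted p = 0.185 and 0.182, and 0.0285 and 0.0377 with the intensity trend). None of the 8 genes of that list passed without the trend, while 3 had an unadjusted p under 0.05, against 3216 of 22432 genes. With the trend 1 of the 8 rose and 1 fell, against 1.37% and 2.49% of all genes. SEL1L and SYVN1 were named for their small p in this comparison.

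Of the other pathway genes, UBA6 gave 7.65 and 7.68 with p65 shRNA, against 8.25 and 8.32 with Ctrl shRNA, a change of -0.62 (limma adjusted p = 0.208, and 0.0228 with the intensity trend). UBB changed by -0.40 with overlapping arrays (limma adjusted p = 0.61). The proteasome-associated genes UCHL5, a deubiquitinase of the cap, and ECPAS, a proteasome adaptor, each changed by -0.49 (limma adjusted p = 0.281 and 0.302). NFKB1, which encodes the p50 partner of p65, and IFNGR1, a chain of the interferon-gamma receptor, changed by -0.60 and -0.53 (limma adjusted p = 0.243 and 0.289). The p65 arrays of these 4 genes lay below both Ctrl arrays, as did those of 22.7% of all genes. As the 4 were named for their small p in this comparison, that separation adds no evidence. None of the 4 passed with the trend either.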

How the data were processed

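RNA of 786-O cells was measured on 10 arrays. The deposited log2 signals were made by the authors with RMA, per the submitters' processing notes, which corrects background, normalizes and summarises per probe set. The genome build, the probe annotation and the software version were not given in the sources used here. No detection measure was used, so no probe set was called absent, and array medians were 6.15 to 6.22 (ZHX2 table) and 1.87 to 1.89 (p65 table). The number of arrays limits the precision.

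Of 53617 probe sets, 24480 named 1 gene in the platform annotations, updated through RefSeq symbols for 600, while 1842 named several, 99 conflicted and 27196 named none. Where several probe sets named a gene (1103 genes), that of highest mean signal stood for it. Each table was fitted separately with limma 3.58.1 (R 4.3.3) on group means over all 22432 genes, with 3 (ZHX2) and 2 (p65) residual degrees of freedom, and adjusted p-values are Benjamini-Hochberg over all genes. Catalytic pairs were compared by exact permutation tests. The fit was tested on simulated data.

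Members and gene lists were chosen with earlier results of these data known. Named genes were the targets, the inducible and constitutive catalytic genes, members with the smallest p (8 for both ZHX2 hairpins, 6 for p65, 4 between hairpins), any member called against the majority, and 2 genes per list and comparison with NFE2L1, POMP, IRF1 and TAP1, while another gene of that rule is not reported here. Others named beside them were chosen after their values were seen. Alternatives were an intensity trend, median centring, quantile normalization, leaving out probe sets under the 40th percentile of mean signal, averaging probe sets, a replicate block, only the groups compared, and leaving out each array.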

Additional observations from a re-analysis of the deposited data

Results flagged for a closer look

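PSMG2, a chaperone of alpha-ring assembly, stands out because the difference between the ZHX2 hairpins itself passed the test. The difference of hairpin 45 less hairpin 44 was 0.90 in log2 units (SE 0.0811) at a limma adjusted p of 0.0229, with both hairpin 45 arrays above both Scr arrays and both hairpin 44 arrays below them. Of all 22432 genes, 0.129% were higher and 0.267% lower in this comparison. The difference was 0.86 to 0.93 after quantile normalization and median centring, and its adjusted p was 0.0781 when only the arrays of both hairpins were fitted. What causes it was not tested.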

How the results depend on the processing

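With both ZHX2 hairpins averaged, the 22 calls became 14 after quantile normalization and 7 to 19 with 1 array left out: 7 without Scr replicate 2, 9 without hairpin 45 replicate 2, and 11 without hairpin 45 replicate 1, hairpin 44 replicate 1 or hairpin 44 replicate 2. Leaving out dim probe sets gave 29 higher and 1 lower of 42, where 20.9% of the 16430 genes kept were higher. Of all called genes, 64.9% were higher, against 53.2% after quantile normalization and 73.0% after median centring. With hairpin 44, the 7 calls became 22 with an intensity trend, 14 without dim probe sets, 0 when only the groups compared were fitted and 0 to 0 with 1 array left out. Without dim probe sets, 12.1% of the 16430 genes kept were higher with hairpin 44 and 1077 genes were lower. With hairpin 45, the 28 calls became 7 to 23: 7 and 9 without hairpin 45 replicate 2 or 1 and 12 without Scr replicate 2. Dropping dim probe sets gave 32 higher and 2 lower (PSMB9 and PSMB10), where 22.2% of the 16430 genes kept were higher and 1965 were lower. Between the hairpins, the 1 call became 19 with the trend, 3 without dim probe sets, 0 when only the groups compared were fitted and 0 to 0 with 1 array left out. Without dim probe sets, 1.21% of the 16430 genes kept were higher with hairpin 45 than with hairpin 44, and 205 genes were lower. With p65, the 0 calls became 2 with the trend. The inducible median less the constitutive median was -0.38 for both hairpins (-0.41 to -0.36 with 1 array left out), -0.25 for hairpin 44 (-0.20 after quantile normalization, -0.24 to -0.19 with 1 array left out), -0.55 for hairpin 45 (-0.60 to -0.54), -0.30 between hairpins (-0.35 to -0.29) and -0.02 for p65 (-0.22 without Ctrl replicate 2 and -0.19 without p65 replicate 2, within -0.22 to -0.02). No called change of a named gene changed sign under the settings tried. Some small changes that had not passed did, such as PSMG2 and IRF1 with both hairpins (-0.05 and 0.03, against 0.01 and -0.01 without Scr replicate 1). The cause of these shifts was not tested, except that fewer arrays or genes enter a fit that leaves some out.

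Same-numbered arrays of different groups did not deviate together (correlations of -0.0263 to 0.0542), so the numbers were not taken to pair them. With the replicate number as a block, 15 members were called with both hairpins, 0 with hairpin 44 and 22 with hairpin 45. In that fit 0 were called between the hairpins and 0 with p65. The share of all genes called with this block is not reported here. Whether the lower counts with the hairpins are particular to the members was thus not tested. The paired fit gave PSMG2 an adjusted p of 0.0918 between the hairpins. No measure of signal over background was used, so how far low signals lie above background was not assessed.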

Other observations

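Of 10 measured genes of peptide trimming and loading for MHC class I, 1 rose and 2 fell with both ZHX2 hairpins averaged, against 11.9% of all genes higher and 6.41% lower. TAP2, a half-transporter of peptides, gave 9.33, 9.24, 9.36 and 9.42 on the hairpin arrays, against 9.05 and 9.00 on the Scr arrays, a change of 0.32 (SE 0.067, limma adjusted p = 0.0264). Its partner TAP1, whose gene lies beside PSMB9, gave 8.67, 8.51, 8.64 and 8.54 on the hairpin arrays, against 8.96 and 8.90 on the Scr arrays, a change of -0.34 (SE 0.0775, limma adjusted p = 0.0325). B2M, the light chain of MHC class I, changed by -0.36 (SE 0.0683, limma adjusted p = 0.0195). The calls of TAP1 and TAP2 were made in none of the fits that left out 1 of the 6 arrays (largest adjusted p = 0.109 and 0.105), and that of B2M in 1 of 6 (largest 0.0874).

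Of 9 measured genes of ubiquitin shuttles and VCP cofactors 2 rose and 0 fell, with a median of 0.20, against the same shares of all genes. UFD1, a cofactor of VCP, gave 8.29, 8.31, 8.50 and 8.53 on the hairpin arrays, against 8.05 and 7.98 on the Scr arrays, a change of 0.39 (SE 0.0627, limma adjusted p = 0.0114). FAF2, another VCP cofactor of the endoplasmic reticulum, changed by 0.36 (SE 0.0737, limma adjusted p = 0.0233) and was called in 1 of 6 fits that left out an array. With p65 shRNA none of the genes of either list passed the limma threshold, and 1 of 9 shuttle and cofactor genes and 4 of 10 loading genes had an unadjusted p under 0.05, against 3216 of 22432 genes. The VCP cofactors NSFL1C and UFD1 changed by -0.47 and -0.23 (limma adjusted p = 0.307 and 0.59). Of the 10 loading genes 6 had positive and 4 negative changes. The p65 arrays of TAPBPL, a tapasin relative, were at 2.64 and 2.47, against 4.04 and 3.65 on the Ctrl arrays, a change of -1.29 (limma adjusted p = 0.106). Those of PDIA3, a disulfide isomerase of the peptide-loading complex, were at 2.55 and 2.35, against 1.5 and 1.3 on the Ctrl arrays, a change of 1.05 (limma adjusted p = 0.116). The Ctrl values of PDIA3 lay at or below the 40th percentile of mean signal of the p65 table (1.51), so this change involves dim signals. With the intensity trend 1 loading gene passed, the chaperone CANX at -0.45 (limma adjusted p = 0.0366, and 0.317 without the trend), named after its values were seen.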
